A study of Mus musculus with 17 samples.

Results

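The genes that build the ribosomes and the respiratory chain were examined in mouse oocytes that had lost the histone methyltransferase gene Ehmt2. They were chosen by symbol from the deposited table of read counts: protein-coding, mitochondrial rRNA or mitochondrial tRNA genes whose symbol starts with mt-, Nduf, Uqcr, Atp5, Mrpl, Mrps, Timm or Tomm, or with Cox, Rpl or Rps followed by a digit. This gave 50 of the 2615 genes in the table. Of these, 45 lie in the nuclear genome and 5 in mitochondrial DNA. By function or symbol, 7 carry cytosolic ribosomal protein symbols, including the annotated pseudogene Rps2-ps6, and 13 carry mitochondrial ribosomal protein symbols. Another 14 nuclear genes are named as subunits of respiratory complexes I, III or IV, and 3 serve complex IV assembly. ATP synthase symbols are carried by 5, and 3 encode parts of the machinery that imports proteins into mitochondria. A few symbols are historical. Ndufa4 was first assigned to complex I and is now known as a subunit of cytochrome c oxidase, Atp5sl is now known as a complex I assembly factor, and the product of Mrps36 is now regarded as a component of the 2-oxoglutarate dehydrogenase complex.

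RNA sequencing compared 3 libraries of control oocytes from Ehmt2(flox/flox) females with 3 libraries of Ehmt2GKO oocytes from females that carried the same floxed alleles together with Gdf9-Cre, to ask how the transcriptome differs when maternal Ehmt2 is absent. Both groups were C57BL/6J mice aged 8 weeks, the tissue label is ovary, and the cells are labelled MII oocytes. That label is a name for oocytes arrested in the second meiotic division. In these mice the Cre recombinase is driven by the promoter of Gdf9, which is active in oocytes from early follicles onward, and it removes exons 4 to 20 of Ehmt2. The study describes the sequenced oocytes of both groups as superovulated. Replicates are numbered 1, 2 and 6 in the control group and 3, 4 and 5 in the Ehmt2GKO group. The labels do not state how many oocytes or females went into a library, so P values measure the spread between libraries, which may be technical. The study reports that few Ehmt2GKO oocytes got through the first meiotic division and that they arrested at metaphase I. The MII label may therefore not describe the Ehmt2GKO oocytes. Such a difference in meiotic stage cannot be told apart from the genotype. Fewer copies per oocyte and fewer oocytes with a transcript also cannot be told apart in such bulk libraries. The libraries were made from polyadenylated RNA, so counts describe that RNA, and the length of poly(A) tails was not measured.

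Every one of the 2615 listed genes has a deposited adjusted P under 0.05, so each member had already been picked for a difference between these 6 libraries. P values given here restate that choice, and direction, size and spread are the description. Counts over the listed genes ranged from 4060653 to 4258350 per library, while depth beyond the listed genes is unknown. Libraries of the same group differed beyond counting noise, with a chi-square per gene of 10.7 to 23.4. Ehmt2 is not among the listed genes, for a reason that is not known, so the genotype could not be checked from its counts. The study reports disrupted Ehmt2 mRNA by RT-PCR and loss of EHMT2 protein signal by immunofluorescence in Ehmt2GKO oocytes. Of 18 oocyte markers, 6 are listed, 3 lower (Zp3 at -1.05 on the log2 scale, Zp1 at -0.86 and Zp2 at -0.40) and 3 higher (Mos at 0.51, Padi6 at 0.48 and Nlrp5 at 0.42), with a summed share of 1.02% to 1.23% of counts in control and 1.21% to 1.26% in Ehmt2GKO libraries. Of 24 markers of cumulus and granulosa cells, the somatic cells around the oocyte, 2 are listed, with summed shares of 0.00805% to 0.00921% in control and 0.00580% to 0.00792% in Ehmt2GKO libraries. They moved in opposite directions: Ptgs2 rose from 6, 10 and 14 counts to 107, 74 and 59, a log2 fold change of 2.98 (standard error 0.382), and the more abundant Kitl fell from 368, 325 and 335 counts to 225, 254 and 188, a log2 fold change of -0.63. None of 12 blood and immune markers is listed, a count of 0. The part of other cells in the results below was not tested.

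Cells make proteins on cytosolic ribosomes, whose proteins are all encoded in the nucleus. Mitochondria hold a second, bacterial-like ribosome that translates the few proteins encoded in mitochondrial DNA, which join nuclear-encoded subunits in complexes I, III, IV and the ATP synthase. The full-grown oocyte is transcriptionally silent and lives on mRNA and mitochondria stored during growth, with a large pool of ribosomes laid down for the embryo.

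Almost all of these genes were lower in Ehmt2GKO oocytes. At an adjusted P under 0.05 by edgeR's quasi-likelihood test, 48 of 50 members were lower, where 50.6% of the 2516 genes tested were lower. Only Cox10 and Mrps2 of the 50 members were higher, where 49.4% of tested genes were. At a change beyond 2-fold with an adjusted P under 0.01, 22 members were lower, or 44.0%, against 16.9% of tested genes, and 0 were higher, against 18.7%. The 3 control and 3 Ehmt2GKO libraries did not overlap, with the controls on the upper side, for 46 members, or 92.0%, against 49.4% of tested genes. For the 2 higher members the groups did not overlap either, against 48.9% of tested genes. The median log2 fold change of the 50 members was -0.93, within a range from -3.31 for Uqcr11 to 0.56 for Mrps2. That of all tested genes was -0.32, but that of the tested protein-coding genes, members included, was 0.33. Of those protein-coding genes 49.2% were lower and 14.5% lower beyond 2-fold. A fall of at least 1.5-fold was seen in 40 members. Just inside the 2-fold limit stood Ndufa6 at -1.06 on the log2 scale, and just outside it Cox6a1 at -0.999 and Rpl10 at -0.96. Adjusted P values of the members ran from 1.25e-08 for Rps2 to 0.00744 for Mrps16 by edgeR's test.

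**Figure D1:**
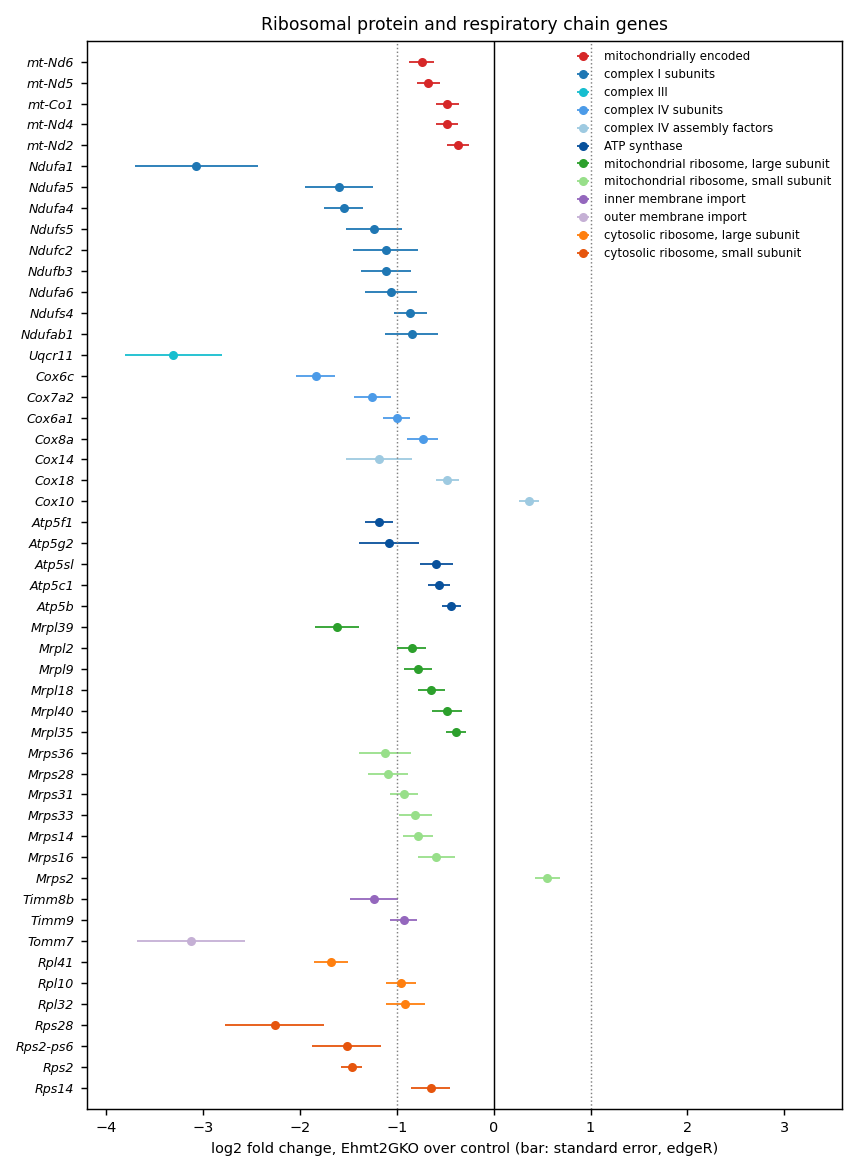
Log2 fold change of each of the 50 genes (x axis, Ehmt2GKO over control, edgeR) with its standard error as a bar, coloured by class, with dotted lines at a 2-fold change either way. All points but Cox10 and Mrps2 lie left of 0, the 5 mitochondrially encoded genes lie between -0.74 and -0.37, and Uqcr11, Tomm7 and Ndufa1 lie farthest left.

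The table holds a small share of each family. GENCODE M21 annotates 338 mouse genes that match the symbols, and 14.8% of them are listed, next to 10.3% of all protein-coding genes. Listed genes made up 8.05% of the 87 matching genes of the cytosolic ribosome (7 genes), 16.7% of the 78 of the mitochondrial ribosome (13 genes), 23.7% of 38 complex I subunit genes (9 genes) and 22.2% of 18 complex IV subunit genes (4 genes). Of the 13 proteins encoded in mitochondrial DNA, 5 are listed, or 38.5%. The unlisted genes were not analysed here, so the counts below describe the listed genes and not whole complexes.

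Promoters of the nuclear genes were read from RefSeq on GRCm38.p6 to describe motifs in the listed genes of these families. An entry was found for 36 of the 45 nuclear members, with 41 start sites. Windows of 300 bases, from 250 before to 50 after the start, were searched on both strands for 4 motifs: the ETS core CCGGAAG, the NRF1 core GCATGCGC, the YY1 core AAGATGGC and the TATA box TATAAA. ETS-family factors, NRF1 and YY1 are known regulators of nuclear genes for mitochondrial proteins. The ETS core was present in 26.8% of the members' windows (11 genes) and in 8.86% of all 32851 windows. The NRF1 core was present in 14.6% (6 genes) and 2.71%, the YY1 core in 7.32% (3 genes) and 2.75%, and TATAAA in 7.32% (3 genes) and 13.6%. Among other tested genes the ETS core was in 17.8% of windows of genes that were lower and 13.7% of windows of genes that were higher, and the NRF1 core in 5.02% and 4.65%. A match is a description of letters and not a binding site. Members were chosen by family symbol, so their shares describe these families and not the change between groups. Unlisted genes of the same families were not compared. The lines below give 70 bases before to 30 from the start, read along the gene, with matches on either strand in capitals. They show the gene that fell most (Uqcr11) and cytosolic ribosome genes with an ETS core (Rpl41) and with TATAAA (Rps2). The TATAAA printed for Rps2 lies after the start, not before it. Also shown are genes of the mitochondrial ribosome and ATP synthase with the NRF1 palindrome GCGCATGCGC (Mrpl9, Atp5g2), and the higher pair (Cox10, Mrps2). That palindrome holds the core on both strands.
Uqcr11, chr10:80406792-80406891, minus strand: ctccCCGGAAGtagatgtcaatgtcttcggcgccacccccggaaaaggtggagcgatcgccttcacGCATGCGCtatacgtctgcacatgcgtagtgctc
Rpl41, chr10:128549139-128549238, minus strand: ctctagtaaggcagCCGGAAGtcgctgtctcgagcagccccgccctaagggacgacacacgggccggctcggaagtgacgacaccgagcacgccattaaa
Rps2, chr17:24719993-24720092, plus strand: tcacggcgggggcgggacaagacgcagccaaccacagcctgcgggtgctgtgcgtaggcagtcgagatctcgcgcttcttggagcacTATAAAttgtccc
Mrpl9, chr3:94443266-94443365, plus strand: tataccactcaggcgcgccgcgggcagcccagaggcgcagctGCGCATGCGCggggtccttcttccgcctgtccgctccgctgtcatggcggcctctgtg
Atp5g2, chr15:102671018-102671117, minus strand: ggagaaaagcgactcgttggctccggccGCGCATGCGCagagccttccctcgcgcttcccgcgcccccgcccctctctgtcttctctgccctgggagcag
Cox10, chr11:64079443-64079542, minus strand: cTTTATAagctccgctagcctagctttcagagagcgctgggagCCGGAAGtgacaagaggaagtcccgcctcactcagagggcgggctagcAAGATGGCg
Mrps2, chr2:28467996-28468095, plus strand: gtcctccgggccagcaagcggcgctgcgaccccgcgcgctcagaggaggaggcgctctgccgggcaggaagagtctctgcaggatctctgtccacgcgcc
Cox10, which was higher, held 3 of the 4 motifs in its window, and Mrps2, also higher, held 0. Windows with the ETS core thus occur among members of both directions. The Rps2 start printed here lies inside the interval that the deposited table gives for Rps2, downstream of its first base.

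The genes of mitochondrial DNA fell together and by a similar amount. All 5 that are listed encode proteins, namely the catalytic core of cytochrome c oxidase (mt-Co1) and the complex I membrane-arm subunits mt-Nd2, mt-Nd4, mt-Nd5 and mt-Nd6. mt-Co1, at MT:5328-6872, was counted 84604, 74184 and 76416 times in control libraries 1, 2 and 6 and 55261, 63760 and 50373 times in Ehmt2GKO libraries 3, 4 and 5. Every control library was above every Ehmt2GKO library, with a log2 fold change of -0.48 (standard error 0.118, adjusted P = 0.0014, edgeR). It is also the most abundant member per length, with a mean of 12174 CPM (counts scaled to a common library total) per kilobase of transcript in control and 8724 in Ehmt2GKO oocytes. mt-Nd4 had 17154, 14653 and 17311 counts in control and 12022, 13083 and 10312 in Ehmt2GKO libraries, a log2 fold change of -0.48. mt-Nd2 changed least, from 16491, 13315 and 16629 counts to 12179, 12903 and 10976, with a log2 fold change of -0.37 (standard error 0.113, adjusted P = 0.0051, edgeR). Its closest libraries, control 2 and Ehmt2GKO 4, were 13315 and 12903 counts.

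The pair mt-Nd5 and mt-Nd6 fell more than the other mitochondrially encoded genes in point estimate. mt-Nd5, at MT:11742-13565, went from 6526, 5196 and 5200 counts to 3929, 3490 and 3262, a log2 fold change of -0.68 (standard error 0.117). mt-Nd6, at MT:13552-14070 on the opposite strand and the sole protein gene encoded on the light strand, went from 1475, 1188 and 1152 counts to 868, 723 and 710, a log2 fold change of -0.74 (standard error 0.129). Their 95% intervals, -0.91 to -0.45 for mt-Nd5 and -0.99 to -0.49 for mt-Nd6, overlap that of mt-Co1, -0.71 to -0.25, and the order of the 5 genes was not tested. In control oocytes mt-Nd6 reached 589 CPM per kilobase, against 743 for mt-Nd5 and 2848 for mt-Nd4. The annotated ends of mt-Nd5 and mt-Nd6 share 14 bases, from MT 13552 to 13565. The kit used here does not record strand, so reads from the opposite strand anywhere within mt-Nd6 could also be counted for it. How far the falls of mt-Nd5 and mt-Nd6 are separate was not tested. The line below is printed in the direction of mt-Nd5, with the shared bases in capitals.
mt-Nd5 and mt-Nd6 overlap, MT:13544-13573, plus strand: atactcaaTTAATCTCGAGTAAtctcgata
Near-identical nuclear copies of mitochondrial DNA, at 95% identity or more over at least 50% of the transcript, are annotated for mt-Co1, mt-Nd4 and mt-Nd5, and none of those copies is listed. How the authors' counting treated reads shared with such copies is not given in the sources used here.

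The median nuclear member fell by more than the median mitochondrially encoded one. The summed counts of both fell by about the same proportion, with Cox10, which rose, in the nuclear sum. The median log2 fold change was -0.999 over the 45 nuclear members and -0.48 over the 5 mitochondrially encoded members. Beyond 2-fold, 22 nuclear members (48.9%) and 0 mitochondrially encoded members were lower, against 16.9% of tested genes. Mitochondrially encoded members took 3.11%, 2.61% and 2.75% of the counts in the table in control libraries 1, 2 and 6 and 2.01%, 2.24% and 1.78% in Ehmt2GKO libraries 3, 4 and 5. Nuclear members took 0.996%, 0.964% and 0.963% in control and 0.721%, 0.682% and 0.667% in Ehmt2GKO libraries. Control exceeded Ehmt2GKO by 1.40 times for the mitochondrially encoded sum (2.82% ± 0.259 and 2.01% ± 0.234, SD, n = 3 each) and by 1.41 times for the nuclear sum (0.974% ± 0.0188 and 0.690% ± 0.0279, SD, n = 3 each). The ratio of nuclear to mitochondrially encoded counts was 0.320, 0.370 and 0.350 in control and 0.359, 0.304 and 0.376 in Ehmt2GKO libraries, and the groups overlapped. A few genes weigh heavily on each sum. mt-Co1 made up 65.5% to 68.3% of the mitochondrially encoded counts and Atp5b 31.1% to 35.9% of the nuclear ones. Cox10, which rose, gave 4876, 5498 and 5861 of the 40431, 40109 and 40884 nuclear counts in control libraries. In Ehmt2GKO libraries Cox10 gave 6580, 6847 and 7599 of 30247, 28566 and 28410. The other nuclear members together thus fell by more than the whole sum. The ratio without Cox10 was not computed, so the overlap of the groups is described only with Cox10 included.

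Limited to the 14 nuclear members named as subunits of complexes I, III and IV, the groups were separate in this ratio. They were not separate once ATP synthase and the assembly factors, Cox10 among them, were included. These 14 genes took 0.127%, 0.112% and 0.0952% of counts in control and 0.0663%, 0.0467% and 0.0417% in Ehmt2GKO libraries, a difference of 2.16 times. Their ratio to the mitochondrially encoded counts was 0.0410, 0.0428 and 0.0346 in control and 0.0330, 0.0208 and 0.0235 in Ehmt2GKO libraries. The lowest control library, 6, and the highest Ehmt2GKO library, 3, were close, and the groups did not overlap. For all 22 nuclear members of the respiratory chain and ATP synthase, the summed share was 1.28 times higher in control. Their ratio was 0.208, 0.250 and 0.241 in control and 0.259, 0.228 and 0.282 in Ehmt2GKO libraries, and the groups overlapped. These 22 include Cox10, which rose and gave 4876, 5498 and 5861 of their 26266, 27150 and 28098 counts in control. In Ehmt2GKO libraries Cox10 gave 6580, 6847 and 7599 of 21817, 21379 and 21362, and the ratio without it was not computed. With 3 libraries in each group, an exact permutation test of any single value cannot give a 2-sided P below 0.1.

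**Figure D2:**
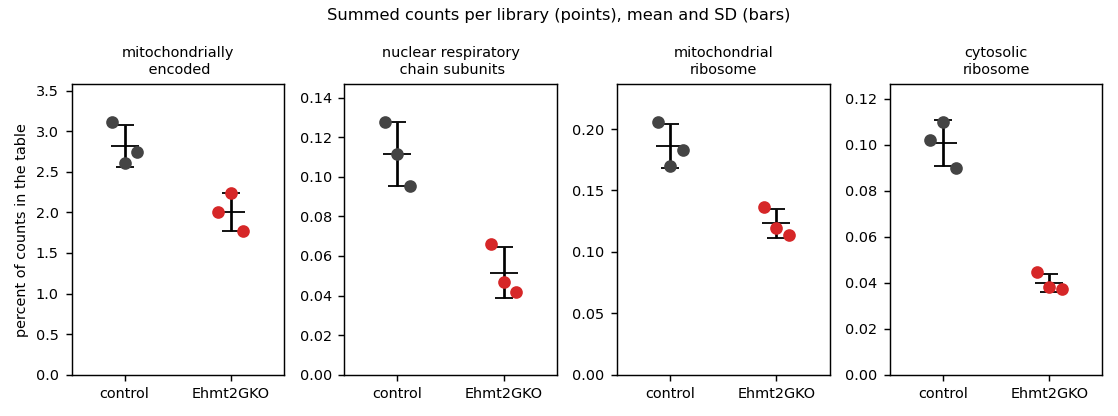
Share of the counts in the table (y axis, percent, each panel from 0 on its own scale) taken in each library by 4 classes of genes; points are libraries and bars the mean and SD of 3. The groups are separate in every panel, and the ratio between groups is largest for the cytosolic ribosome, at 0.0899% to 0.110% in control and 0.0372% to 0.0445% in Ehmt2GKO libraries.

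Complex I is the NADH dehydrogenase that feeds electrons into the chain. All 9 nuclear members with complex I symbols, Ndufa4 among them, were lower, where 50.6% of tested genes were. Beyond 2-fold there were 7, Ndufa4 included, or 77.8%, against 16.9% of tested genes. The median log2 fold change was -1.11. Ndufa1, a small membrane-arm subunit on chromosome X, was counted 23, 24 and 14 times in control and 3, 0 and 4 times in Ehmt2GKO libraries, a log2 fold change of -3.07 with a 95% interval from -4.31 to -1.83. So few reads fix its direction better than its size. Ndufa5, from the hydrophilic arm, had 56, 99 and 62 counts in control and 31, 26 and 15 in Ehmt2GKO libraries, a log2 fold change of -1.59 (standard error 0.349). For Ndufs5 the counts were 102, 79 and 67 against 40, 30 and 36, and the log2 fold change was -1.24 (standard error 0.289). Ndufc2, Ndufb3 and Ndufa6 stood at -1.11, -1.11 and -1.06 on the log2 scale. The accessory subunit Ndufs4 was at -0.86. Ndufab1, the mitochondrial acyl carrier protein, was at -0.85 and was 1 of 2 members whose groups overlapped, because control 6 (102 counts) lay below Ehmt2GKO 3 (117 counts).

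Ndufa4, listed by its symbol with complex I although its product sits in cytochrome c oxidase, went from 531, 431 and 398 counts to 218, 131 and 121, a log2 fold change of -1.55 (standard error 0.202). This places it next to the complex IV subunit that fell most, Cox6c, with 678, 750 and 512 counts in control and 254, 139 and 156 in Ehmt2GKO libraries and a log2 fold change of -1.84 (standard error 0.201, adjusted P = 1.01e-06, edgeR). For Cox7a2 the counts were 718, 644 and 545 against 357, 264 and 186, a log2 fold change of -1.25. Cox6a1 and Cox8a, the other listed nuclear subunits of this complex, stood at -0.999 and -0.73. In all of these the controls lay above the Ehmt2GKO libraries without overlap. By comparison mt-Co1, the catalytic subunit of the same enzyme, was at -0.48.

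The 3 assembly factors of cytochrome c oxidase did not move together. Cox14, which accompanies newly made mt-Co1 protein, had 80, 73 and 61 counts in control and 50, 26 and 19 in Ehmt2GKO libraries, a log2 fold change of -1.18 (standard error 0.343). Cox18, which inserts the second core subunit into the membrane, had 717, 744 and 730 against 574, 507 and 503, a log2 fold change of -0.48 (standard error 0.119). Cox10, the enzyme that farnesylates heme on the way to heme A, was higher, with 4876, 5498 and 5861 counts in control and 6580, 6847 and 7599 in Ehmt2GKO libraries, a log2 fold change of 0.37 (standard error 0.103, adjusted P = 0.00309, edgeR). It lies on the minus strand at chr11:63962627-64079468 in the deposited table, and per length it was among the more abundant nuclear members, at 444 and 573 CPM per kilobase in control and Ehmt2GKO oocytes. Its exons overlap those of 9630013K17Rik on the other strand by 49 bases.

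Uqcr11, a small subunit of complex III, the cytochrome bc1 complex, had the lowest log2 fold change of all members. It was counted 25, 49 and 38 times in control and 2, 6 and 3 times in Ehmt2GKO libraries, a log2 fold change of -3.31 with a 95% interval from -4.29 to -2.33 (adjusted P = 2.72e-05, edgeR). All Ehmt2GKO libraries were far below the lowest control, and the size rests on few reads. The gene lies at chr10:80402997-80406830 on the minus strand, and its main transcript of 445 nucleotides is among the shortest here. It is the only 1 of 8 annotated complex III genes in the table.

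All 5 members with ATP synthase symbols, Atp5sl among them, were lower, where 50.6% of tested genes were. Their median log2 fold change was -0.59. Atp5b, the catalytic beta subunit and the most abundant nuclear member per length, had 12582, 13533 and 14257 counts in control and 9857, 10242 and 9834 in Ehmt2GKO libraries, a log2 fold change of -0.44 (standard error 0.0967, adjusted P = 6.61e-04, edgeR). Its level fell from 1682 to 1242 CPM per kilobase, and the spread within each group was small beside the gap. Atp5c1, the gamma subunit that turns inside the catalytic head, was at -0.56. Atp5f1, from the peripheral stalk, fell beyond 2-fold, from 565, 562 and 651 counts to 316, 242 and 229, a log2 fold change of -1.18 (standard error 0.146). Its first exons overlap those of Wdr77 on the other strand by 337 bases, so part of its reads may not be its own. Atp5g2, 1 of the genes for the membrane ring, went from 56, 55 and 47 counts to 28, 22 and 25, a log2 fold change of -1.08. Atp5sl was at -0.59.

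Of the 13 listed members with symbols of the ribosome that translates mitochondrial mRNA, Mrps36 among them, 12 were lower. The share over all tested genes was 50.6%, and the median log2 fold change of the 13 was -0.78. Beyond 2-fold there were 3, Mrps36 included, or 23.1%, near the 16.9% of all tested genes. In the large subunit all 6 members were lower. Mrpl39 fell most, from 164, 160 and 160 counts to 66, 42 and 51, a log2 fold change of -1.62 (standard error 0.230), and the tight controls lay far above all Ehmt2GKO libraries. For Mrpl9, whose promoter with the NRF1 palindrome is printed above, the counts were 552, 581 and 696 against 395, 370 and 304, a log2 fold change of -0.78. Mrpl2, Mrpl18, Mrpl40 and Mrpl35 stood at -0.85, -0.64, -0.48 and -0.39.

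In the small subunit, 6 of 7 members were lower, where 50.6% of tested genes were. Mrps28 had 182, 161 and 174 counts in control and 96, 78 and 70 in Ehmt2GKO libraries, a log2 fold change of -1.09 (standard error 0.208). Mrps36 had 301, 165 and 178 against 137, 92 and 71, a log2 fold change of -1.12, with control 1 well above the other controls. Mrps31, Mrps33, Mrps14 and Mrps16 ranged from -0.93 to -0.59. Mrps2 was the exception and had the highest log2 fold change of all 50 members. It was counted 437, 490 and 543 times in control and 689, 682 and 798 times in Ehmt2GKO libraries, a log2 fold change of 0.56 (standard error 0.128, adjusted P = 8.77e-04, edgeR). Every Ehmt2GKO library lay above every control. The gene is at chr2:28468066-28471178 on the plus strand.

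**Figure D3:**
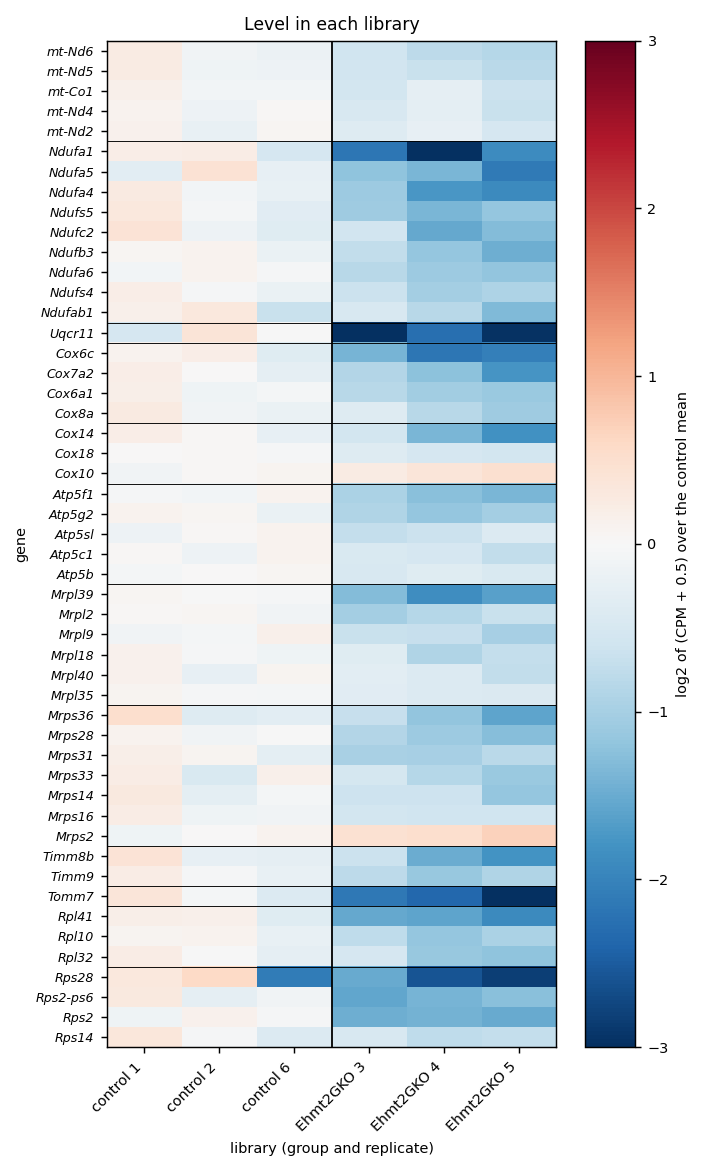
Level of each of the 50 genes (vertical axis, grouped by class) in each of the 6 libraries (horizontal axis), as log2 of CPM plus 0.5 over the control mean, blue below and red above it, with colours saturating at 3 either way. Ehmt2GKO columns are blue for all genes but Cox10 and Mrps2, often most weakly in replicate 3, and Rps28 is blue in control 6 as well.

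All 7 listed members with cytosolic ribosome symbols were lower, where 50.6% of tested genes were. Beyond 2-fold there were 4, or 57.1%, against 16.9% of tested genes, and the median log2 fold change was -1.46. Among the 7 is Rps2-ps6, an annotated pseudogene of Rps2 whose reads may be those of Rps2. The count and the median may therefore not rest on 7 separate genes. Rps2, a small-subunit protein near the mRNA entry site, is the most abundant of them per length. It was counted 2164, 2640 and 2424 times in control and 895, 889 and 849 times in Ehmt2GKO libraries, a log2 fold change of -1.46 (standard error 0.107, adjusted P = 1.25e-08, edgeR). The gap was many times the spread within either group. Rpl41, the smallest ribosomal protein, went from 526, 531 and 380 counts to 168, 157 and 127, a log2 fold change of -1.68 (standard error 0.178). Rps28 had the lowest log2 fold change of the class, -2.26 (standard error 0.513), but its libraries overlapped, with 171, 213 and 32 counts in control and 49, 21 and 18 in Ehmt2GKO libraries. Control 6, at 32 counts, lay below Ehmt2GKO 3. Rpl10, which joins the large subunit late in its assembly, went from 579, 602 and 487 counts to 335, 242 and 290, a log2 fold change of -0.96. Rpl32 was at -0.91 and Rps14 at -0.65.

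Most of these genes have copies that could share reads. At least 1 annotated transcript elsewhere matches the main transcript at 95% identity or more over at least 50% of its length for 6 of the 7 cytosolic ribosome members and for 0 of the 13 mitochondrial ones. Rps2 has 27 such copies, and 1 of them, Rps2-ps6 on chromosome 14, is itself a member, because the deposited table calls it protein-coding although GENCODE M21 annotates a processed pseudogene. Rps2-ps6 had 50, 34 and 39 counts in control and 13, 14 and 16 in Ehmt2GKO libraries, a log2 fold change of -1.52, close to that of Rps2, and the counts of the 2 genes may come from the same transcripts. Rpl10 has 9 copies and Rpl41, Rps28 and Rps14 have 1 or 2 each. Rpl32, the sole cytosolic member with no copy by this rule, was at -0.91. Its main transcript here has 906 nucleotides and overlaps Snora7a on the same strand by 140 bases. Copies that cover less than 50% of that transcript were not counted, so shared reads are not excluded for Rpl32. Over the 39 members of all classes with no copy by this rule, 37 were lower, where 50.6% of tested genes were. Their median was -0.93.

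Set side by side, the listed genes of the cytosolic ribosome fell more than those of the mitochondrial ribosome. The cytosolic members took 0.102%, 0.110% and 0.0899% of counts in control and 0.0445%, 0.0382% and 0.0372% in Ehmt2GKO libraries, a difference of 2.52 times. Mitochondrial ribosome members took 0.206%, 0.170% and 0.183% in control and 0.136%, 0.120% and 0.113% in Ehmt2GKO libraries, a difference of 1.51 times. The ratio of cytosolic to mitochondrial ribosome counts was 0.497, 0.644 and 0.492 in control and 0.326, 0.319 and 0.327 in Ehmt2GKO libraries, without overlap. Rps2 alone gave 48.0% to 63.5% of the cytosolic counts. Without Rps2 and Rps2-ps6 the ratio was 0.232, 0.267 and 0.175 in control and 0.168, 0.139 and 0.148 in Ehmt2GKO libraries, where control 6 and Ehmt2GKO 3 nearly met. Since 8.05% of the cytosolic family is listed, this ratio covers few of its genes, most of them with copies.

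Proteins made in the cytosol enter mitochondria through translocases. All 3 listed members of this group were lower, where 50.6% of tested genes were. Tomm7, a small regulator of the outer membrane channel, had 31, 23 and 18 counts in control and 4, 3 and 1 in Ehmt2GKO libraries, a log2 fold change of -3.12 with a 95% interval from -4.21 to -2.04. It was the least abundant member per length in control, at 5.14 CPM per kilobase, and was at 0.563 in Ehmt2GKO oocytes. Timm8b and Timm9, small chaperones of the space between the membranes, stood at -1.24 and -0.93. For Timm8b the counts were 581, 377 and 379 against 292, 154 and 129, with control 1 high and Ehmt2GKO 3 high in their groups.

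Libraries ranked alike across the genes. Control 1 was the highest of its group for 31 of 50 members and control 6 the lowest for 28. Ehmt2GKO 3 was the highest of its group for 36 members, 34 of them among the 45 nuclear ones, and Ehmt2GKO 5 the lowest for 31. Among the 5 mitochondrially encoded genes the order differed in part, with Ehmt2GKO 4 highest for 3 and Ehmt2GKO 3 for 2. As the median over nuclear members of the log2 level relative to the control mean, the Ehmt2GKO libraries 3, 4 and 5 stood at -0.74, -1.13 and -1.17 and the controls 1, 2 and 6 at 0.16, -0.01 and -0.19. The members therefore are not 50 independent observations of the 2 groups. Without control 6 and Ehmt2GKO 3, an alternative added after seeing the data, 46 members were lower and 2 higher at an adjusted P under 0.05, and 29 were lower beyond 2-fold; Atp5sl and mt-Nd2 then no longer passed, with log2 fold changes of -0.45 and -0.31. Leaving out 1 library at a time, 14 of the 22 members beyond 2-fold stayed so in every case. Without Ehmt2GKO 5, 15 members were lower beyond 2-fold, with Atp5g2, Cox14, Mrps28, Mrps36, Ndufa6, Ndufb3 and Ndufc2 lost. Without control 1 there were 17, with Atp5g2, Cox14, Mrps36, Ndufc2 and Timm8b lost, and without Ehmt2GKO 4 there were 19, with Atp5g2, Cox14 and Ndufc2 lost. Without control 2, Atp5g2 was lost and Cox6a1 gained. Without control 6 there were 28 and without Ehmt2GKO 3 there were 27, none of the 22 lost.

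Short genes had lower log2 fold changes than long genes, both among the members and elsewhere in the table. Members with a main annotated transcript of up to 1000 nucleotides numbered 25, all lower, 72.0% beyond 2-fold, with a median log2 fold change of -1.12. The 25 longer members included 23 that were lower and 4 beyond 2-fold, with a median of -0.64. The longer members beyond 2-fold were Tomm7, Mrpl39, Rps2 and Atp5f1. Among the 130 other protein-coding genes of up to 1000 nucleotides, 73.1% were lower and 30.8% lower beyond 2-fold, with a median of -0.75, while of the 2016 longer ones 46.4% were lower and 12.6% beyond 2-fold, with a median of 0.38. Across genes, Spearman's rho between log2 fold change and length was 0.61 over the 50 members and 0.17 over 2146 other protein-coding genes. Between log2 fold change and the control level it was 0.64 over the members and -0.27 over the others. Genes share libraries and are not independent replicates, and length was not separated from abundance. The part of transcript length in the fall of the members was not tested.

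**Figure D4:**
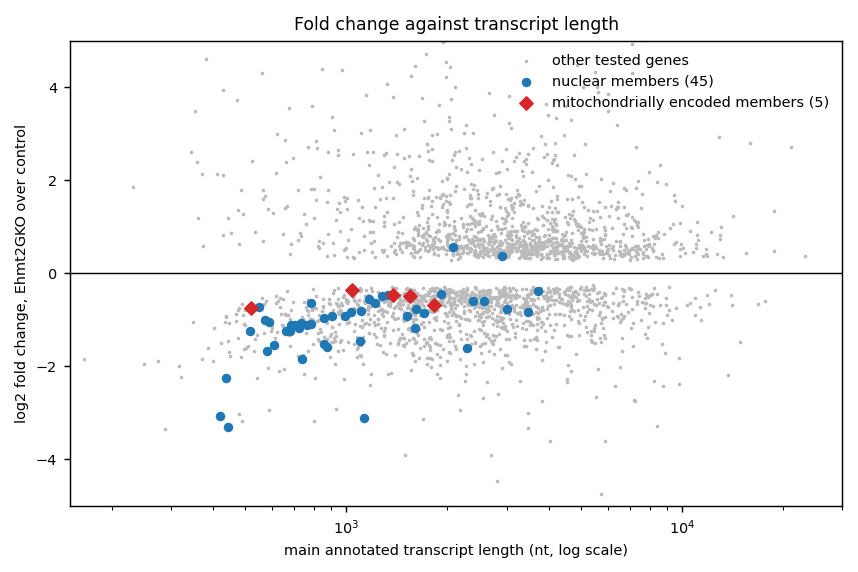
Log2 fold change (y axis, Ehmt2GKO over control) against the length of the main annotated transcript (x axis, nucleotides, log scale) for nuclear members (blue), mitochondrially encoded members (red) and the other tested genes (grey); 44 other genes lie outside the axes, which end at 5 on the log2 scale either way. Most blue points under 1000 nucleotides lie below -1, grey points there lie mostly below 0, and the gap without points around 0 reflects the selection of listed genes.

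Genes of the same pathways that the symbol rule left out were counted in the same way, where 50.6% of all tested genes were lower and 16.9% lower beyond 2-fold. Of 56 other respiratory chain genes, 6 are listed, of which 5 were lower and 1 higher. Sdhc, a membrane anchor of complex II, went from 993, 718 and 883 counts to 358, 318 and 325, a log2 fold change of -1.38 (standard error 0.142). Coq9, needed to make ubiquinone, had 96, 145 and 112 counts in control and 38, 18 and 32 in Ehmt2GKO libraries, a log2 fold change of -2.01. Nubpl, which supplies iron-sulfur clusters to complex I, was at -1.41. The higher gene was Coq10a, a ubiquinone-binding protein at 0.89, named after its values were seen. Of 26 further genes of protein import, 7 are listed and all 7 were lower, 4 beyond 2-fold, led by Romo1 at -1.28, Pam16 at -1.25 and the mitochondrial chaperonin partner Hspe1 at -1.03.

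Genes that express mitochondrial DNA were represented by 4 of 52, all lower by less than 2-fold, among them Mtg1 at -0.59 and Lrpprc, which stabilises mitochondrial mRNA, at -0.56. The stalk proteins Rplp1 and Rplp2, the 2 listed of 10 cytosolic ribosome proteins outside the symbol rule, stood at -1.11 and -0.65. Genes of cytosolic translation and ribosome assembly went both ways, with 12 of 98 listed, 5 lower and 7 higher, a split near the 50.6% lower and 49.4% higher of all tested genes. Rrs1, a ribosome assembly factor, rose from 7, 11 and 8 counts to 81, 80 and 66, a log2 fold change of 3.10 (standard error 0.354, adjusted P = 1.51e-06, edgeR). Paip2, which restrains poly(A)-binding protein, fell from 2399, 2294 and 2034 counts to 729, 650 and 667, a log2 fold change of -1.73. Nop10, of the small nucleolar particles that modify rRNA, was at -1.54. Of 16 regulators of mitochondrial biogenesis Prkaa2, the alpha-2 subunit of AMP-activated kinase, is listed, at -0.85.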

How the data were processed

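The authors deposited whole-number read counts per gene for 6 RNA libraries, without normalization, made from polyadenylated RNA amplified with the SMART-Seq v4 Ultra Low Input kit, which does not mark strand. The submitters' processing notes name FastQC, Trim Galore, HISAT2 and DESeq2 and the GRCm38 and mm10 builds, without roles or versions, and the counting program is not given in the sources used here. The table also holds the authors' fold change ratio, its log2, P value and adjusted P value; of these deposited columns the adjusted P was read once, to test how genes were listed (2615 of 2615 under 0.05), and the rest were not used. The 11 DNA methylation samples among the 17 in the series were not analysed here.

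Counts were fitted in R 4.3.3 with edgeR 4.0.16: filterByExpr with a minimum count of 10 (2516 genes, all 50 members), TMM factors, the quasi-likelihood F-test and Benjamini-Hochberg adjustment over the tested genes. TMM and the adjustment therefore ran on selected genes. The F statistic of each gene, with its log2 fold change, gave the standard error. Shares are counts over all counts in the table, and levels per kilobase are TMM-scaled CPM divided by the length of the main GENCODE M21 transcript. Of the gene identifiers, 2613 were found in GENCODE M21. Copies were searched with blastn 2.17.0. Other software was DESeq2 1.42.0, limma 3.58.1, Python 3.11.15, numpy 2.4.6, pandas 2.3.3, scipy 1.17.1 and matplotlib 3.10.9. The fit was tested on simulated data in which most genes did not change. The listed genes were all selected for a difference, so that simulation does not test the fit on selected genes.

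Named genes are every mitochondrially encoded member, every member beyond 2-fold at an adjusted P under 0.01, up to 4 members with the largest change in each class plus up to 2 of the minority direction, and the top 3 of each pathway list; the remaining members are given by value for completeness. Members and lists were chosen with earlier results of these data known. DESeq2 and limma voom were run as alternatives, as were further scalings and count filters, leaving out each library, another denominator for shares and the omission of members with copies.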

Additional observations from a re-analysis of the deposited data

How the results depend on the processing

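The counts of members kept their direction under all alternatives run. At an adjusted P under 0.05, 45 to 48 members were lower and 2 higher over 16 alternatives (a minimum of 10 counts in every library removed Uqcr11, Tomm7 and Ndufa1), and past 2-fold 15 to 29 were lower (22 as reported) and 0 higher over 18. Class medians ranged from -1.20 to -0.86 for nuclear, -0.61 to -0.39 for mitochondrially encoded and -0.85 to -0.67 for mitochondrial ribosome members, and 0 values reversed. The cytosolic ribosome median went from -1.46 to -0.91 without members that have a copy by the search rule, which leaves Rpl32 alone. Leaving out control 6 and Ehmt2GKO 3 together, added after seeing the data, moved the import median from -1.24 to -1.75 and left Atp5sl (-0.45) and mt-Nd2 (-0.31) above an adjusted P of 0.05; the cause was not tested. Another scaling moved the median of all genes by at most 0.094 on the log2 scale. Leaving out 1 library at a time changed no direction and no call at an adjusted P under 0.05 among the 43 genes followed, but 8 of the 22 members beyond 2-fold were lost in at least 1 case (15 to 28 members called). No paired analysis was possible because no replicate number occurs in both groups. The main limits are the selection of listed genes, the unknown depth over all genes, and few reads for Uqcr11, Tomm7 and Ndufa1.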
